A study of Mus musculus with 36 samples.

Results

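The 10 genes described here encode plasma membrane carriers that bring amino acids into the cell, or exchange them across its surface, and they were followed in mouse pancreatic fibroblasts that had grown alone or in contact with tumour cells. They were chosen by name as rows of the deposited count table: Slc7a1, Slc7a3, Slc7a5, Slc7a11, Slc3a2, Slc1a4, Slc1a5, Slc38a1, Slc38a2 and Slc6a9, 10 of 39017 genes. All 10 were present, and all 10 were among the 14439 genes left after the filter on low counts. The fibroblasts were of the C57BL/6 strain and were cultured for 48 h with 1 of 7 tumour sub-clones (E, H, K, M, N, T and V) or with KPC1, a tumour line that the labels do not explain, before they were sorted away from the GFP-expressing tumour cells. Fibroblasts in mono-culture, with no tumour cells, formed the control group, and each of the 9 groups held 4 libraries of poly(A) RNA. The labels do not say whether the 4 libraries of a group came from separate cultures, so the p-values measure the spread between these libraries. In the same way, the clones and KPC1 stand for 1 line each, and all 8 co-cultures were compared with the same 4 mono-culture libraries.

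Amino acid carriers work in families. Slc7a1 and Slc7a3 carry cationic amino acids such as arginine and lysine. Slc7a5, the large neutral amino acid exchanger, and Slc7a11, the cystine/glutamate exchanger, are light chains that reach the cell surface only when bound to the heavy chain glycoprotein Slc3a2. Slc1a4 and Slc1a5 exchange small neutral amino acids, Slc1a5 being a main route for glutamine. Slc38a1 and Slc38a2 bring in glutamine, alanine and other neutral amino acids together with sodium, and Slc6a9 takes up glycine. Several of these genes are textbook targets of ATF4, the transcription factor of the integrated stress response that is made when amino acids run short or proteins misfold, and Slc7a11 is also a textbook target of NRF2, the factor of the antioxidant response. In pancreatic tumours, fibroblasts are known to exchange amino acids with the tumour cells around them.

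The genes lie apart in the genome (GRCm38.p6, RefSeq gene bodies). Slc7a11 spans chr3:50364936-50499087, Slc6a9 chr4:117835258-117869305, Slc7a1 chr5:148327410-148399904, Slc1a5 chr7:16781334-16798274 and Slc7a5 chr8:121881146-121907686. Slc1a4 spans chr11:20302180-20332713, Slc3a2 chr19:8706882-8723369 and Slc7a3 chrX:101079146-101090452. Slc38a1 (chr15:96571418-96643438) and Slc38a2 (chr15:96687392-96699728) are the only pair on 1 chromosome. The RefSeq promoter table held 9 promoters of 6 of the genes, and those of Slc7a3, Slc7a5, Slc1a5 and Slc38a1 were not analysed here. In the 250 bases before each start, 2 motifs were searched on both strands: TGATGNAAN, the C/EBP-ATF composite element that ATF4 can bind, and TGACNNNGC, the core of the antioxidant response element that NRF2 can bind. Of the 6 genes, Slc7a11 alone held the first, in 2 copies that face each other, from base 66 and base 48 before the start, while 3.44% of all 32851 promoters in the table held at least 1. The antioxidant core was found in 4 of the 9 promoters, of 3 genes (Slc7a1, Slc38a2 and Slc6a9), and in 10.2% of all promoters. A match is a description of the letters and not a binding site. For Slc7a11 and Slc3a2 the only start searched lies inside the gene body given above, and the 5′ end of that body was not searched. The stretches before the start are shown for Slc7a11, for Slc38a2 and Slc7a1 with their antioxidant core, and for Slc3a2, which held neither motif; each runs 5′ to 3′ along its gene's strand, and capitals mark the motifs.
Slc7a11 chr3:50443614-50443863 (minus strand): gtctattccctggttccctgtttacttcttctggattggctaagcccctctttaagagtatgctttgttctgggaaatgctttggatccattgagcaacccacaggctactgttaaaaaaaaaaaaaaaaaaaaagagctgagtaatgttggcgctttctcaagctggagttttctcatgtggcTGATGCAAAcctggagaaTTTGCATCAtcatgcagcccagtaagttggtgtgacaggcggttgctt
Slc38a2 chr15:96699729-96699978 (minus strand): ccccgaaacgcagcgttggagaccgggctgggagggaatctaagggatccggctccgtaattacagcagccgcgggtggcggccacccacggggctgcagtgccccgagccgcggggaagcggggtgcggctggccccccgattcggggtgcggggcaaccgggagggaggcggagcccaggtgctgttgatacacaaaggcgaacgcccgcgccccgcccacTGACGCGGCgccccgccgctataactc
Slc7a1 chr5:148399905-148400154 (minus strand): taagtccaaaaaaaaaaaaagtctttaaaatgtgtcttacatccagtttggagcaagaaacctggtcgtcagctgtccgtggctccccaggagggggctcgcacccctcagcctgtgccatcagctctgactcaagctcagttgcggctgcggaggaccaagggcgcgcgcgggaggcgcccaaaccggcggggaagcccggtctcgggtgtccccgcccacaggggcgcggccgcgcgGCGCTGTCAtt
Slc3a2 chr19:8713898-8714147 (minus strand): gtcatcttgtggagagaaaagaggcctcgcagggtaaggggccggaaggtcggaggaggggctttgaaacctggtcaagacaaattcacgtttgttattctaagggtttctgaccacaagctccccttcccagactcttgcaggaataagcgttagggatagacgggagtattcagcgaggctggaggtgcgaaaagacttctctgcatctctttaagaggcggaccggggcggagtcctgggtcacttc

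Fibroblasts used these genes at very different levels. Per transcript length, as the authors' RPKM values (reads divided by gene length and library total), Slc38a2 was the highest in mono-culture at 121 ± 3.40 (SD, n = 4), followed by Slc3a2 at 98.3 ± 7.49 and Slc7a5 at 84.7 ± 13.3. Slc1a5 (40.6 RPKM), Slc6a9 (38.0), Slc7a1 (22.9) and Slc1a4 (20.1) formed the middle, and Slc38a1 (8.06) and Slc7a11 (4.33) were low. Slc7a3 stood at the bottom with 0.479 RPKM and 18 to 31 reads per mono-culture library, so that its values rest on few counts. The light chains that share Slc3a2 (Slc7a5, Slc7a6, Slc7a7, Slc7a8, Slc7a10 and Slc7a11) summed to 108 RPKM in mono-culture, of which Slc7a5 made up 78.6%, Slc7a6 14.5% and Slc7a11 4.02%. The level of Slc3a2 was 0.912 times that sum in mono-culture and 0.880 to 1.13 times in the co-cultures, while the part of the sum held by Slc7a11 ranged from 2.77% with clone M to 12.4% with clone N.

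**Figure D1:**
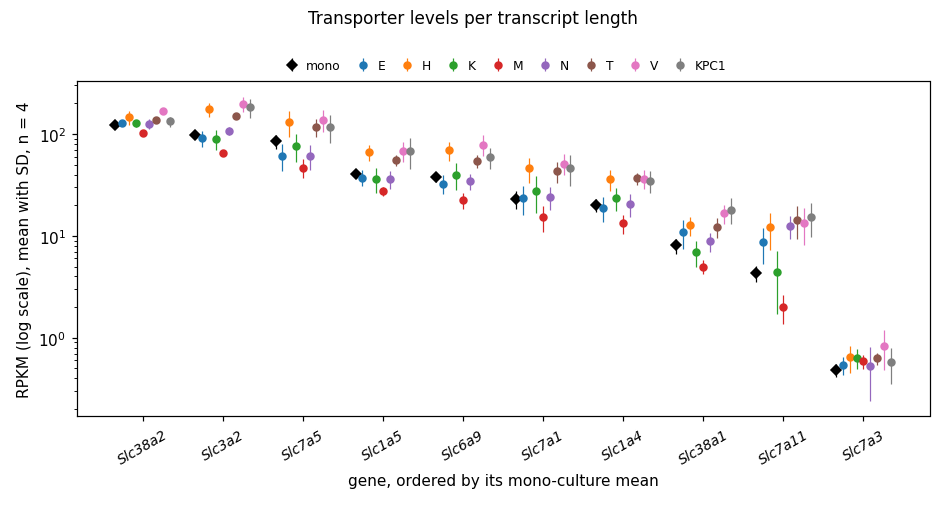
Mean RPKM (log axis) of each gene in the 9 groups, with bars for the SD of 4 libraries; black diamonds are the mono-culture and coloured circles the co-cultures. Levels run from 121 RPKM for Slc38a2 to 0.479 RPKM for Slc7a3 in mono-culture, and the points of clone M lie lowest for 9 of the genes, all but Slc7a3.

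The question put to the data was how transporter transcripts of fibroblasts differed with the tumour line beside them. The number of genes called against mono-culture differed by line, and such counts are not tests between the lines. Tested directly, none of the 10 was called between clone H and clone T, clone V or KPC1. None was called between KPC1 and clone T or V either, and 1 was called between clones T and V. With clone V all 10 genes were higher than in mono-culture, with clone H 9, 7 each with clone T and KPC1, only Slc7a11 with clones E and N, none with clone K, and with clone M 3 were lower and none higher. These calls are from edgeR's quasi-likelihood test with Benjamini-Hochberg adjustment over all genes tested, at a threshold of 0.05. Of all genes tested, 29.4% were higher and 28.9% lower with clone V, 27.8% and 26.4% with clone H, 25% and 24.7% with clone T, and 30.5% and 28.5% with KPC1. The shares were 16.5% higher and 15.5% lower with clone E, 19.7% and 19.2% with clone N, 10.4% and 8.69% with clone K, and 12.2% and 10.8% with clone M. The 10 genes had a median log2 fold change of 1.03 (clone V), 0.87 (clone H), 0.87 (KPC1), 0.65 (clone T), 0.12 (clone N), 0.11 (clone K), 0.03 (clone E) and -0.57 (clone M), while the median over all genes lay between -0.0090 and 0.012 in the 8 comparisons. The count with clone M was the least settled: it was 5 by DESeq2 and 8 when only these 2 groups were fitted, all lower, and 1 without clone M replicate 4 or mono-culture replicate 2. The 7 with clone T became 4 without clone T replicate 2 or mono-culture replicate 1. For clone K, none of the 10 genes passed an unadjusted p under 0.05 either, and DESeq2 also called 0. Summed over the 10 genes, the RPKM of the mono-culture was 439 ± 36.6 (SD, n = 4), against 768 ± 121 (clone V), 694 ± 140 (clone H), 676 ± 149 (KPC1), 622 ± 65.0 (clone T) and 300.03 ± 29.3 (clone M). With clones K, N and E the sums of 433, 431 and 412 RPKM lay within 1 SD of the mono-culture mean.

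**Figure D2:**
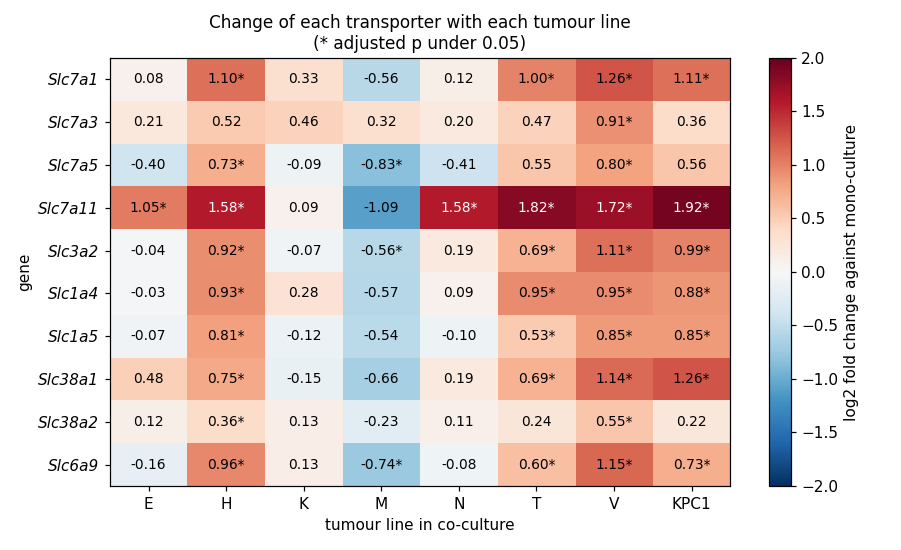
Log2 fold change of each gene (rows) in fibroblasts with each tumour line (columns) against mono-culture, coloured from blue (lower) to red (higher), with an asterisk where the adjusted p was under 0.05. The columns of clones H, T and V and of KPC1 are red throughout, the column of clone M is blue for 9 genes, and Slc7a11 is the one gene with an asterisk for clones E and N.

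Slc7a11, which imports cystine for glutathione synthesis, had the largest rise of the 10 genes with each of the 6 lines in which it was called. In the 4 mono-culture libraries it was at 30.8, 46.4, 33.7 and 42.5 CPM (counts relative to the library total, TMM-scaled). With KPC1 the 4 libraries were at 217, 147, 131 and 84 CPM, and with clone T at 177, 150, 152 and 61.9 CPM. All libraries of both groups lay above all mono-culture libraries. With clone V the values were 185, 149, 98.3 and 72.2 CPM, with clone H 163, 118, 130 and 49.4 CPM, and with clone N 124, 114, 146 and 76.3 CPM. These 3 groups were also clear of the mono-culture, although the lowest library with clone H came within a few CPM of it. The rise was 3.78-fold for KPC1 (log2 fold change 1.92 ± 0.41 SE, adjusted p = 0.000213 by edgeR), 3.53-fold for clone T (1.82 ± 0.41, 0.000524), 3.29-fold for clone V (1.72 ± 0.41, 0.000671), 3.0-fold for clone N (1.58 ± 0.41, 0.0027) and 2.99-fold for clone H (1.58 ± 0.41, 0.00171). Clone E gave 115, 49.9, 93.8 and 57.7 CPM, again above every mono-culture library, and a log2 fold change of 1.05 ± 0.40 that just passed (adjusted p = 0.0478). This call was lost when any of 6 libraries was left out, namely clone E replicates 1 and 3 and each of the 4 mono-culture libraries. With clone K the libraries spread from 16 to 74.8 CPM around the mono-culture. With clone M they were at 15.6, 26.4, 17.8 and 12.1 CPM, all below the mono-culture, and the log2 fold change of -1.09 ± 0.42 did not pass (adjusted p = 0.0586).

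With clones N and E, Slc7a11 was called and its partner genes were not. No test compared the change of Slc7a11 with theirs. With clone E, where the Slc7a11 call just passed, the log2 fold changes of Slc3a2 (-0.04 ± 0.16) and Slc7a5 (-0.40 ± 0.28) were not called. Slc7a11 with clone N (mean 115 CPM) was at the level seen with clone H (115 CPM), while Slc3a2, Slc7a5 and the other 7 genes were not called against mono-culture. Slc3a2, the shared heavy chain, was at 296, 295, 342 and 278 CPM with clone N against 237, 283, 257 and 283 CPM in mono-culture. Of the 4 libraries with clone N, 3 lay above every mono-culture library, and the ranges overlapped. Slc7a5 was at 244, 206, 272 and 141 CPM with clone N against 221, 311, 283 and 327 CPM, a log2 fold change of -0.41 ± 0.28 (adjusted p = 0.261). Between the co-cultures themselves, Slc7a11 was the only one of the 10 genes that differed between clones K and N, by 1.49 ± 0.41 on the log2 scale (adjusted p = 0.00907). Clones N and T differed in 3 genes, Slc7a5, Slc3a2 and Slc1a4, and not in Slc7a11, for which N was lower by 0.23 ± 0.39 on the log2 scale (adjusted p = 0.768). The count for this pair was not settled: it was 6 by DESeq2, 6 without the libraries numbered 4 and 7 at an unadjusted p under 0.05.

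Slc3a2 itself rose with 4 lines and fell with 1. With clone V it reached 621, 620, 627 and 417 CPM, and with KPC1 536, 674, 475 and 418 CPM. Clone H gave 507, 552, 583 and 369 CPM, and clone T 440, 458, 416 and 398 CPM. All 16 of these libraries were above the highest mono-culture library, at 283 CPM. The log2 fold changes were 1.11 ± 0.16 (adjusted p = 8.45e-07), 0.99 ± 0.16 (4.75e-06), 0.92 ± 0.16 (1.7e-05) and 0.69 ± 0.16 (0.000622), in the same order. With clone M the values of 172, 195, 188 and 165 CPM were all below the mono-culture, and the gene fell by 0.56 ± 0.16 on the log2 scale (adjusted p = 0.0109). In the order of its means, clone V, KPC1, clone H and clone T did not differ from their neighbours, clone T was above clone N (adjusted p = 0.0464), and the steps from clone N through the mono-culture and clones E and K to clone M were each too small to pass.

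Slc7a5, its main light chain, moved with it in part. It rose with clone V to 556, 644, 451 and 344 CPM (log2 fold change 0.80 ± 0.28, adjusted p = 0.0149) and with clone H to 554, 552, 528 and 254 CPM (0.73 ± 0.28, 0.0293). The library at 254 CPM lay inside the mono-culture range, the other 3 well above it. The call with clone H was lost without clone H replicate 1, 2 or 3, without mono-culture replicate 1, with no filter on low counts and by limma-trend (adjusted p between 0.0503 and 0.0966). The call with clone V was lost without clone V replicate 2 (0.0597) or mono-culture replicate 1 (0.0554). With clone T (441, 495, 459 and 279 CPM) and KPC1 (489, 537, 415 and 245 CPM), 3 libraries of each were above the mono-culture and 1 was not, and neither passed (adjusted p = 0.102 and 0.0842). With clone M it fell to 159, 212, 149 and 123 CPM, all below the mono-culture, by 0.83 ± 0.28 on the log2 scale (adjusted p = 0.0317). This call too was lost with no filter on low counts (0.0649). It was also lost without clone M replicate 1, 3 or 4 or mono-culture replicate 2, 3 or 4 (between 0.0578 and 0.0965).

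The carriers of cationic amino acids split by level. Slc7a1, at 127, 175, 136 and 193 CPM in mono-culture, rose with clone V to 417, 475, 358 and 259 CPM, a 2.39-fold change (log2 fold change 1.26 ± 0.31, adjusted p = 0.000971). It also rose with KPC1 (407, 451, 312 and 188 CPM; 1.11 ± 0.31, 0.003), with clone H (391, 393, 389 and 184 CPM; 1.1 ± 0.31, 0.00349) and with clone T (318, 394, 351 and 199 CPM; 1.0 ± 0.31, 0.00814). The lowest library with KPC1 and with clone H fell inside the mono-culture range. Slc7a3 stayed between 0.680 and 3.76 CPM in all 36 libraries. It was called only with clone V (3.76, 2.46, 1.74 and 1.5 CPM against 1.21, 1.05, 1.37 and 1.42 CPM), with a log2 fold change of 0.91 ± 0.31 (adjusted p = 0.0139). Without clone V replicate 1, the library at 3.76 CPM, the change was 0.60 and the call was lost (adjusted p = 0.115). It differed in 0 of 28 pairs of co-cultures by edgeR and by DESeq2, and in 2 at an unadjusted p under 0.05.

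The small neutral amino acid exchangers rose with clones H, T and V and with KPC1. Slc1a4 was at 63.3, 80.4, 69.4 and 89.8 CPM in mono-culture and at 162, 159, 153 and 110 CPM with clone T, a log2 fold change of 0.95 ± 0.24 (adjusted p = 0.0019). With clone V it was at 155, 182, 144 and 105 CPM (0.95 ± 0.24, 0.00135), and the changes with clone H (0.93 ± 0.24) and KPC1 (0.88 ± 0.24) were as large. Slc1a5, at 92.8, 118, 113 and 113 CPM in mono-culture, was at 245, 262, 162 and 119 CPM with KPC1 and at 234, 218, 206 and 129 CPM with clone V. Every library of both groups was above every mono-culture library, the lowest of KPC1 only just. The log2 fold changes of Slc1a5 were 0.85 ± 0.22 with KPC1 and with clone V, 0.81 ± 0.22 with clone H and 0.53 ± 0.22 with clone T, the last with an adjusted p of 0.0452, which rose to between 0.053 and 0.126 without any 1 of the mono-culture libraries or of clone T replicates 1 to 3, and to between 0.0693 and 0.0785 with no scaling, with no filter or by limma-trend. With clone M, Slc1a5 was at 76.0, 82.6, 79.8 and 61.5 CPM, below all mono-culture libraries, and did not pass (adjusted p = 0.0751).

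The sodium-coupled carriers Slc38a1 and Slc38a2 differed in size of change. Slc38a1, at 53.0, 65.1, 49.8 and 71.5 CPM in mono-culture, reached 198, 126, 155 and 97.1 CPM with KPC1, a 2.40-fold change (log2 fold change 1.26 ± 0.25, adjusted p = 6.28e-05). With clone V it was at 172, 125, 124 and 106 CPM (1.14 ± 0.25, 0.000219). Both groups were clear of the mono-culture, and with clones H and T 3 of 4 libraries were above it. Slc38a2 had the highest RPKM of the 10 in mono-culture, though with clones H, T and V and with KPC1 Slc3a2 was above it (175 against 146, 151 against 136, 198 against 166 and 183 against 133 RPKM). Slc38a2 was at 542, 563, 515 and 531 CPM in mono-culture and at 763, 778, 829 and 782 CPM with clone V, a rise of 1.47-fold (log2 fold change 0.55 ± 0.11, adjusted p = 0.000115). It rose 1.29-fold with clone H (736, 753, 784 and 491 CPM; 0.36 ± 0.11, 0.00772), where 1 library was below the mono-culture, and was not called with clone T (0.24 ± 0.11, 0.0721) or KPC1 (0.22 ± 0.11, 0.0873). With clone M all 4 libraries, at 471, 482, 462 and 413 CPM, were below the mono-culture without passing (adjusted p = 0.139).

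Slc6a9, the glycine carrier, was at 106, 143, 123 and 135 CPM in mono-culture. With clone V it was at 326, 337, 268 and 193 CPM and with clone H at 268, 287, 276 and 156 CPM. All 8 libraries were above the mono-culture, with log2 fold changes of 1.15 ± 0.23 (adjusted p = 7.09e-05) and 0.96 ± 0.23 (0.000645). KPC1 (0.73 ± 0.22, 0.00613) and clone T (0.60 ± 0.22, 0.0258) gave smaller rises. With clone M the values of 83.9, 92.6, 65.7 and 61.5 CPM were all below the mono-culture, a fall of 0.74 ± 0.23 on the log2 scale (adjusted p = 0.0173). The call with clone M was lost without clone M replicate 3 or 4 or mono-culture replicate 2 (between 0.0534 and 0.0615). The call with clone T was lost without mono-culture replicate 1 (0.0845) or clone T replicate 2 (0.0924).

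**Figure D3:**
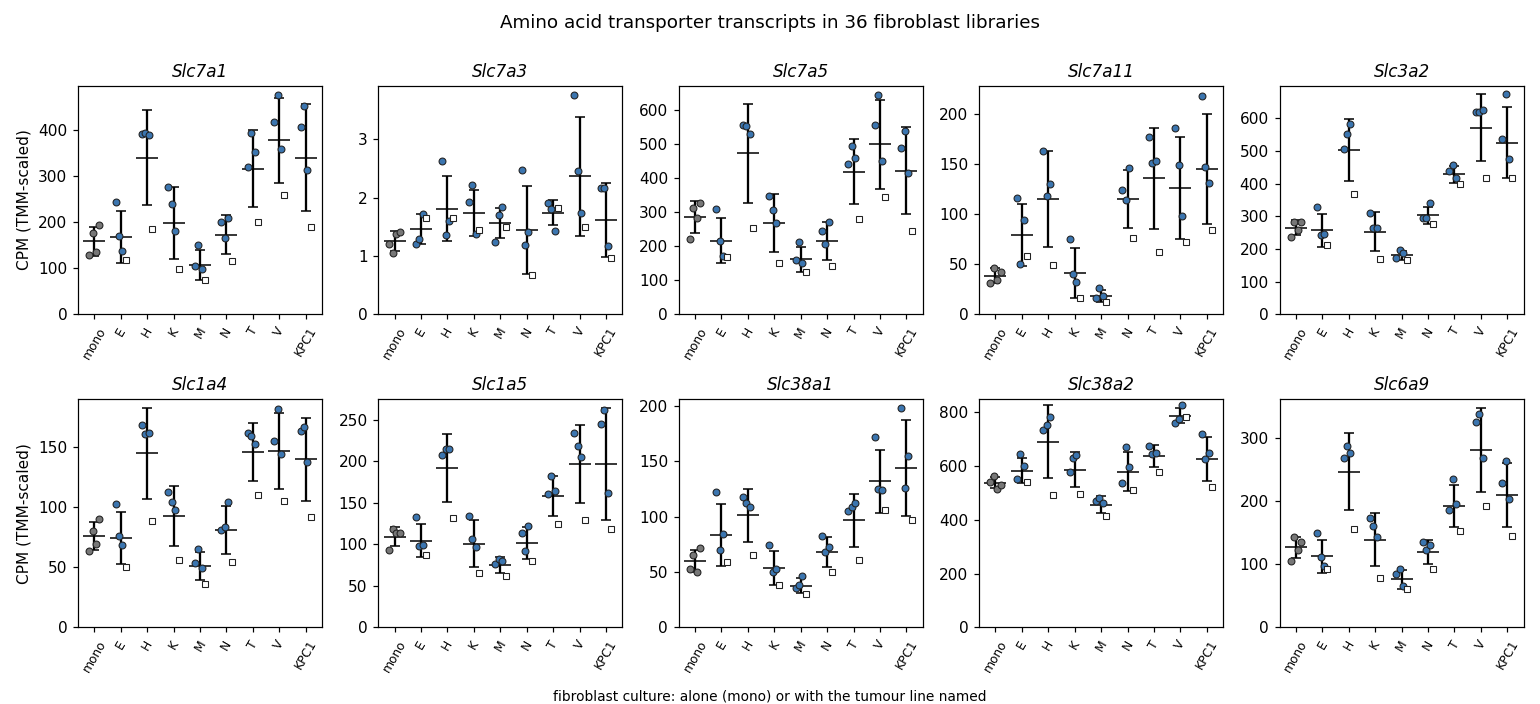
CPM of each gene in each library by group, with horizontal marks for the mean and bars for the SD of 4 libraries; grey points are the mono-culture, blue points the co-culture libraries numbered 1 to 3, and white squares those numbered 4. The white square is the lowest of its group in 8 of 8 co-cultures for 7 of the genes, and clones H, T and V and KPC1 lie above the mono-culture for most genes.

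Averaged over the 7 clones, little of this remained. Only Slc7a11 (log2 fold change 0.96 ± 0.33, adjusted p = 0.016) and Slc3a2 (0.32 ± 0.12, 0.0323) were called against mono-culture, both higher, beside 24.3% of all genes called higher and 24.9% lower, and neither was called without mono-culture replicate 1 or without mono-culture replicate 3, while 8 genes were called without the co-culture libraries numbered 4. The differences lay among the clones. An F-test over the 7 clones called 9 of the 10 genes, all but Slc7a3 (adjusted p = 0.337), and 67.5% of all genes. The highest clone was V for 9 genes and T for Slc7a11, and clone M was the lowest for all genes but Slc7a3, which was lowest with clone N. The ratio of the highest to the lowest clone mean was 7.53 for Slc7a11, between 2.63 and 3.70 for Slc7a1, Slc7a5, Slc3a2, Slc1a4, Slc1a5, Slc38a1 and Slc6a9, and 1.72 for Slc38a2.

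Over the 28 pairs of co-cultures, 127 of the 280 member-by-pair tests were called, against 27.5% of such tests over all genes. Slc3a2 differed in 18 pairs, Slc1a4 and Slc6a9 in 16, Slc7a5 in 15, Slc1a5 and Slc38a1 in 14, Slc7a1 in 13, Slc7a11 in 11 and Slc38a2 in 10. Clone M against clones H, T, V and KPC1, and clone K against clone V, differed in 9 of the 10 genes each. Of all genes, 51.1% (M and H), 40.5% (M and T), 57.9% (M and V), 55.5% (M and KPC1) and 54.8% (K and V) were called in the same pairs. In 7 pairs, among them H and V, H and T, H and KPC1, T and KPC1, and V and KPC1, none of the 10 was called by edgeR, with 5 of these 70 tests at an unadjusted p under 0.05 and 1 called by DESeq2. The pairs E with K and E with N were the other 2. Of all genes, 0.388% (H and V), 1.27% (E and N), 2.89% (H and KPC1), 5.36% (T and KPC1), 7.58% (H and T), 10.7% (V and KPC1) and 11.5% (E and K) were called in these pairs. In E with K and in T with KPC1 the libraries of the same number deviated together, and with the number as a block 2 and 1 of the 10 genes were called. Clones K and M differed in 1 gene, but in 3 by DESeq2 and 7 without the libraries numbered 4. Clones T and V also differed in 1, and by the same alternatives in 2 and 3. Of all genes, 2.24% were called between K and M and 24% between T and V.

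Within each co-culture the library numbered 4 stood apart. It was the lowest of the 4 libraries in 8 of 8 co-cultures for Slc7a1, Slc7a5, Slc3a2, Slc1a4, Slc1a5, Slc38a1 and Slc6a9, and in 7 of 8 for Slc7a11 and Slc38a2. Over all genes tested, 1.32% were lowest in that library in 8 of 8 co-cultures and 4.83% in 7 or 8. The mean deviation of the libraries numbered 4 from their group means was -0.76 on the log2 scale for Slc7a11, -0.64 for Slc7a1 and -0.19 for Slc38a2. Totals of these 8 libraries ranged from 12532122 to 21985538 counts, and the other 24 co-culture libraries from 15029467 to 21670728. Slc7a1 shows what this did to the ranges. With clone H the library numbered 4 was at 184 CPM and the others at 389 to 393 CPM, and with clone V at 259 CPM against 358 to 475 CPM. Among the libraries numbered 4 alone, Slc3a2 was at 418 CPM (KPC1), 417 (clone V), 398 (clone T) and 369 (clone H), all above the mono-culture, and at 165 CPM with clone M, below it. Other genes were not clear of the mono-culture in these libraries. Slc7a5 was inside its range with clone H (254 CPM), KPC1 (245 CPM) and clone T (279 CPM), and Slc38a1 with clone H (65.5 CPM) and clone T (60.6 CPM). When the 8 libraries were left out, a step chosen after the data had been seen, the number of the 10 genes called was 10 with clone V, 9 each with clones H and T and with KPC1, 7 with clone M (all lower), 2 each with clones E and K (all higher), 1 with clone N and 8 (all higher) for the mean of the 7 clones. Slc7a11 was among the 7 that were then lower with clone M, at -0.95 ± 0.31 on the log2 scale (adjusted p = 0.0281). The labels do not say what the number stands for, and its part in the results beyond these values was not tested.

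**Figure D4:**
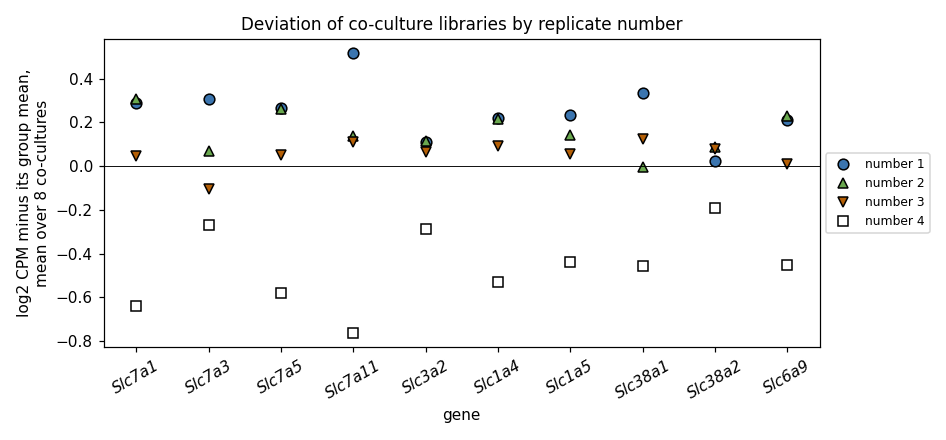
Deviation of log2 CPM from the mean of its own group, averaged over the 8 co-cultures, for the libraries carrying each replicate number. Number 4 lies below the other numbers for all 10 genes, from -0.19 for Slc38a2 to -0.76 for Slc7a11.

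Of the 10 genes, 9 varied together. Across the 36 libraries the Pearson correlation of log2 CPM between 2 of them had a median of 0.84 over the 45 pairs, and of 0.89 (0.73 to 0.98) over the 36 pairs without Slc7a3. With the group means removed it was 0.87 (0.55 to 0.98) without Slc7a3. For Slc7a3 with the other 9 genes it was 0.32 to 0.49, and 0.14 to 0.54 with the group means removed. The points share libraries, groups and replicate numbers, and the values are a description. Outside the 10, the genes whose log2 CPM was most like theirs among 11686 genes were few and recurred. The mitochondrial protease Lonp1 was the most similar gene for Slc7a1 (r = 0.97), Slc7a5 (0.96), Slc1a4 (0.96) and Slc1a5 (0.98) and the next for Slc6a9 (0.97), whose closest was Adm2 (0.98). The glutamyl-prolyl-tRNA synthetase Eprs came next for Slc7a1 (0.97) and Slc1a4 (0.95), and the mitochondrial folate enzyme Aldh1l2 for Slc7a5 (0.96) and Slc1a5 (0.97). Slc3a2 was closest to the translation repressor Eif4ebp1 (0.98) and the asparagine synthetase Asns (0.98), Slc7a11 to the cysteinyl-tRNA synthetase Cars (0.93) and to Stc2 (0.92), and Slc38a1 to the cystathionine lyase Cth (0.94) and the glycyl-tRNA synthetase Gars (0.93). Slc38a2 (Nup188, 0.87, and Ddx3x, 0.84) and Slc7a3 (Rtel1, 0.80, and D330041H03Rik, 0.73) had less similar neighbours.

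Genes of the integrated stress response followed the same lines. Of 23 regulators and enzymes, all tested, 21 were higher and 1 lower with clone V, and the counts were 20 and 1 for clone H, 19 and 1 for KPC1, and 17 and 1 for clone T. They were 3 and 1 for clone N, 2 and 2 for clone E, 0 and 1 for clone K, and 0 and 12 for clone M. Of all genes, 29.4% were higher and 28.9% lower with clone V, and 12.2% and 10.8% with clone M. The list median of the log2 fold change was 1.14 with clone V and -0.65 with clone M. Asns changed by 1.69 ± 0.23 (clone V), 1.65 ± 0.23 (KPC1), 1.41 ± 0.23 (clone H), 1.27 ± 0.22 (clone T) and -0.87 ± 0.22 (clone M), all called. Atf4 transcripts rose less, by 0.71 ± 0.14 (clone V), 0.62 ± 0.14 (KPC1), 0.60 ± 0.14 (clone H) and 0.33 ± 0.14 (clone T), and fell by 0.73 ± 0.14 with clone M. The pro-death factor Ddit3 and the pseudokinase Trib3 rose with the same 4 lines and fell with clone M, Trib3 by 1.46 ± 0.26, and Ddit3 also fell with clone E, by 0.89 ± 0.21. For the mean of the 7 clones, 7 of the 23 were higher and 1 lower. The phosphatase subunit Ppp1r15a (1.09 ± 0.23) and Cebpb (0.78 ± 0.13) were the most raised, and Atf5, at -1.55 ± 0.15, was the one that fell. Atf5 was lower with all 8 tumour lines. This list holds genes of the response and shares no member with the 10 transporters.

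The NRF2 targets were called in both directions with every line but clone K, and no test compared this list with the transporters. Of 10, 3 were higher and 2 lower with clones V and H and with KPC1, 3 and 3 with clone T, and 1 and 5 with clone M. With clones N and E, where Slc7a11 was the one transporter called, 2 were higher and 3 lower, and 2 and 2. For clone K the counts were 0 and 3. Of all genes tested, the share called in either direction was 58.3% (clone V), 54.2% (clone H), 59% (KPC1), 49.8% (clone T) and 23% (clone M). It was 39% (clone N), 32% (clone E) and 19.1% (clone K). With the lines that raised the transporters, members went both ways. The thioredoxin reductase Txnrd1, picked out after its values had been seen, was higher with KPC1 (0.73 ± 0.10), clone V (0.68 ± 0.10), clone H (0.62 ± 0.10) and clone T (0.35 ± 0.10). It stood at -0.26 ± 0.10 with clone M without passing. Gclc and Osgin1 were also called higher with clones H, T and V and with KPC1. Gclm, picked out in the same way, was called lower with each of them, from -0.34 ± 0.11 (clone T) to -0.47 ± 0.11 (clone H). Nqo1 was lower too, from -1.63 ± 0.25 (clone H) to -2.13 ± 0.26 (clone V). Over the 7 clones, Osgin1 (0.71 ± 0.15) and the glutathione synthesis enzyme Gclc (0.31 ± 0.10) were higher, and Nqo1 (-1.58 ± 0.16) and the haem oxygenase Hmox1 (-0.54 ± 0.10) lower.

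Other amino acid transporters were called in both directions, and no test compared them with the 10. Of 34 further plasma membrane carriers, 16 passed the filter on low counts. Between 3 and 10 of them were called with each line, in both directions (5 higher and 5 lower with clone V, 2 and 1 with clone M). Of all genes tested, 58.3% were called with clone V and 23% with clone M. The share was 19.1% with clone K, where 6 carriers were called, and 49.2% for the mean of the clones, where 8 were. Slc43a2, a neutral amino acid carrier, rose with all 8 lines, from 2.22 CPM in mono-culture to between 6.69 and 13.5 CPM, a log2 fold change of 2.06 ± 0.21 for the mean of the clones. Slc7a2, a cationic carrier, followed at 1.05 ± 0.30. Slc38a4, of the same family as Slc38a1 and Slc38a2, went the other way (-1.83 ± 0.20), from 7.28 CPM in mono-culture to 0.962 CPM with clone V, and the glutamate carrier Slc1a6 was also lower (-0.96 ± 0.27). Slc7a6, a further light chain of Slc3a2 that was picked out after its values had been seen, rose with all 8 lines, clones K and M included (0.37 ± 0.08 each), and to 1.05 ± 0.08 with clone V.

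Carriers of the lysosome, where called, were mostly lower. Of 10 listed, 9 were in the files and 8 tested. For the mean of the 7 clones 5 were lower and 1 higher, beside 24.9% and 24.3% of all genes, while Slc38a6 and Slc38a9 were not called. With each of the 8 lines 2 to 5 were lower, beside 8.69% (clone K) to 28.9% (clone V) of all genes. The cystine exporter Ctns fell by 1.26 ± 0.11 on the log2 scale and was lower with all 8 lines, from -0.58 ± 0.15 with clone K to -1.87 ± 0.16 with KPC1. Slc36a1 fell by 0.59 ± 0.10, and Slc36a4 was the one that rose, by 0.17 ± 0.07. Of 13 mitochondrial amino acid carriers tested, 4 were higher and 4 lower for the mean of the clones. Of all genes, 24.3% were higher and 24.9% lower in this comparison. Among those with a mean of at least 2 CPM, the serine carrier Sfxn1 (0.31 ± 0.07) and the aspartate/glutamate carrier Slc25a12 (0.28 ± 0.07) led the higher side. The glycine carrier Slc25a38 (-0.55 ± 0.11) and Sfxn2 (-0.45 ± 0.11) led the lower side. Below that mean, Slc25a2 (0.474 CPM) changed by 1.11 ± 0.31 and Slc25a29 (1.62 CPM) by -1.15 ± 0.21. All of these adjusted p-values, by edgeR, were under the threshold. Slc7a11, the importer of cystine at the surface, was higher with clones E, H, N, T and V and with KPC1, where Ctns, its exporter at the lysosome, was lower. Ctns was also lower with clone K, where Slc7a11 was not called. With clone M both had negative changes, Ctns at -0.88 ± 0.16 and Slc7a11 at -1.09 ± 0.42 without passing.

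**Figure D5:**
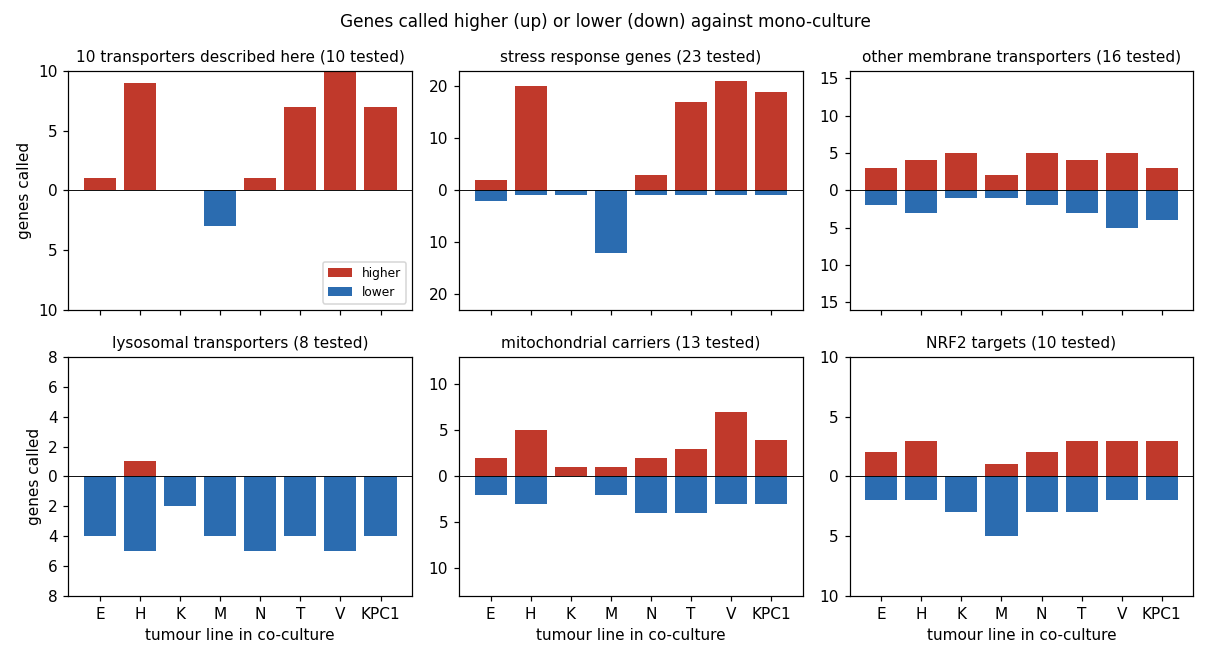
Number of genes called higher (red, above the line) or lower (blue, below it) against mono-culture with each tumour line, for the 10 transporters and 5 other lists; each vertical axis spans the number of genes tested. The first and second panels rise with clones H, T and V and with KPC1 and fall with clone M. The lysosomal carriers that were called are mostly below the line with every tumour line.

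The sorted cells held fibroblast transcripts in every library. All 10 fibroblast markers had a mean over 1 CPM in each group, except with KPC1, where 9 did. Several of these markers were lower with the lines that raised the transporters: of 10, the number called lower was 5 (clone H), 6 (clone T), 5 (clone V) and 6 (KPC1), beside 2 to 4 higher, and it was 0 for each of the other 4 lines, beside 2 to 4 higher there too. Of all genes, 26.4% (clone H), 24.7% (clone T), 28.9% (clone V) and 28.5% (KPC1) were lower. The medians of the summed markers were 16928 CPM (clone H), 16885 (clone T), 17127 (clone V) and 15064 (KPC1), against 21731 CPM in mono-culture and 22743 (clone E), 27247 (clone K), 26626 (clone M) and 23300 (clone N). The receptor Pdgfra was among those lower with the 4 lines, by 1.68 ± 0.22 on the log2 scale with clone V. Fap went the other way and was called higher with every line, from 4.19 ± 0.29 with clone V to 6.01 ± 0.29 with clone M. For the mean of the 7 clones, Fap (5.13 ± 0.26) and Pdgfrb (0.93 ± 0.17) had the largest called rises. Lum (-1.22 ± 0.32) and Pdgfra (-0.70 ± 0.15) were the markers called lower. Epithelial markers moved with co-culture: 11 of them summed to 2.74 to 3.47 CPM in mono-culture and to 19.8 to 801 CPM in the co-cultures, and 1 to 3 of the 11 were at 0 in each group. The medians of this sum were 83.0 CPM (clone V), 143 (clone K), 166 (clone H), 215 (clone M), 330 (KPC1), 333 (clone E), 456 (clone T) and 521 (clone N). Leukocyte (5.54 to 33.2 CPM summed), endothelial (1.12 to 6.33) and acinar markers (2.22 to 10.8) were low throughout. The part of fibroblast and epithelial markers in the transporter values was not tested. In bulk samples, fewer cells of a type and less RNA per cell cannot be told apart.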

How the data were processed

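RNA sequencing libraries of sorted fibroblasts were described by the submitters as poly(A)-selected and strand specific. The authors deposited read counts per gene, as whole numbers with no scaling, for 39017 genes and 36 libraries, and RPKM values for 37746 of them, in which reads are scaled by the length of the gene and the size of the library. The submitters' processing notes name STAR, featureCounts, edgeR and the build mm10, with no versions; whether counting used strand is not given in the sources used here, so overlapping and antisense genes could not be told apart.

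The 36 libraries held 12532122 to 21985538 counts each, so counting error is small for all members but Slc7a3. Counts were fitted with edgeR 4.0.16 in R 4.3.3 (filterByExpr on the 9 groups, TMM, estimateDisp, robust glmQLFit, glmQLFTest), with 1 coefficient per group over all 36 libraries. Contrasts set each co-culture and the mean of the 7 clones against mono-culture, the 7 clones against each other, and 28 pairs of co-cultures. P-values were adjusted by Benjamini-Hochberg over 14439 genes at a threshold of 0.05. Standard errors were derived from the fold change and its F-statistic. Alternatives used DESeq2 1.42.0 and limma 3.58.1 on log2(RPKM + 1). Scripts were tested on simulated data.

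The members and all gene lists were chosen with earlier results of these data known. The 10 members were named in every comparison. The other lists were of other plasma membrane, lysosomal and mitochondrial carriers, stress response genes, NRF2 targets and markers of 5 cell types. No gene was named of the epithelial, leukocyte, endothelial and acinar markers. Of each remaining list, the 2 highest and 2 lowest log2 fold changes of the mean of the 7 clones were named. These were taken among genes called with a mean of at least 2 CPM, and Atf4, Asns, Ddit3 and Trib3 were named beside them. Promoters and gene positions are from RefSeq (GRCm38.p6).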

Additional observations from a re-analysis of the deposited data

Results flagged for a closer look

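Each of the 10 genes was tested in each of the 9 groups for a library far from the other 3 (Dixon's test, which chance meets in about 1 of 20 groups), and 8 of the 90 sets met it. All 8 were the lowest value of a co-culture, in the library numbered 4. In clone H replicate 4, Slc7a1 was at 184 CPM (other libraries 389 to 393), Slc7a5 at 254 CPM (528 to 554), Slc1a4 at 88.2 CPM (160 to 168), Slc1a5 at 131 CPM (207 to 215), Slc38a2 at 491 CPM (736 to 784) and Slc6a9 at 156 CPM (268 to 287). In clone V replicate 4, Slc3a2 was at 417 CPM (620 to 627), and in clone T replicate 4, Slc38a1 was at 60.6 CPM (105 to 112).

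The change against mono-culture differed between tumour lines for 9 of the 10 genes, by edgeR's test of the pair itself; for each the widest called pair is given, chosen for its size. Clone V exceeded clone M by 1.82 ± 0.32 on the log2 scale for Slc7a1, 1.63 ± 0.29 for Slc7a5, 1.67 ± 0.16 for Slc3a2, 1.52 ± 0.25 for Slc1a4, 0.79 ± 0.11 for Slc38a2 and 1.89 ± 0.23 for Slc6a9. KPC1 exceeded clone M by 3.01 ± 0.43 for Slc7a11, 1.39 ± 0.22 for Slc1a5 and 1.93 ± 0.25 for Slc38a1.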

How the results depend on the processing

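The counts of members called with clones H, V and KPC1, among the 7 clones (9) and over the 28 pairs of co-cultures (127) stayed within 1.5 times their value under every alternative run, and no called fold change of a member turned direction. With clone E the count of 1 became 0 with no scaling beyond library size, with no filter on low counts and by limma-trend on log2(RPKM + 1). With clone M the count of 3 became 6 with no scaling, 5 by DESeq2, 5 by limma-trend, 7 at an adjusted p threshold of 0.1 and 8 with only the groups compared. For the mean of the 7 clones the count of 2 became 1 with no scaling and 1 by limma-trend. Without the co-culture libraries numbered 4, an alternative added after the data had been seen, the counts were 2 (clone E), 2 (clone K), 7 (clone M) and 8 (mean of the clones). Leaving out 1 library at a time gave 0 to 1 for clone E, 8 to 9 for clone H, 0 for clone K, 1 to 4 for clone M, 1 for clone N, 4 to 8 for clone T, 9 to 10 for clone V, 7 to 9 for KPC1, 0 to 3 for the mean of the clones, 9 among the clones and 119 to 140 for the pairs. With the replicate block the counts were 9 (clone H), 9 (clone T), 10 (clone V), 9 (KPC1) and 4 for the mean of the clones, all higher. They were 9 for clone M, all lower, 2 each for clones E and N, 1 higher and 1 lower, and 0 for clone K. Among the clones the count was 9, and for the pairs 163. Pairing by replicate number was checked by asking for r over 0.1 for every number. Same-numbered libraries met this in 0 of 8 pairs with the mono-culture, where r ran from -0.58 to 0.46, and in 3 of 28 pairs of co-cultures. A pair fails this check on 1 weak number, as clones E and M did (r from 0.053 to 0.69, median 0.41). Over the pairs of co-cultures the median r of same-numbered libraries ran from -0.31 (N and KPC1) to 0.42 (T and KPC1). Pairing among some co-cultures is therefore not excluded. The causes of the changes in these counts were not tested. Depth limits Slc7a3, at 12 to 74 reads per library.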

Other observations

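The library numbered 4 was the lowest of its group in 8 of 8 co-cultures for 7 of the 10 transporters and for 3 of the 23 integrated stress response genes (13%), beside 1.32% of all genes tested. It was the lowest in 7 or 8 co-cultures for 9 of the 10 transporters and for 6 of the 23 stress response genes (26.1%), beside 4.83% of all genes. The difference between the lists was not tested.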
